A study of Mus musculus with 17 samples.

Results

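Skeletal stromal/stem cells (SSCs) of mice homozygous for the Cxcr4 1013 allele were compared with SSCs of wild-type (WT) mice, across all genes. The libraries were chosen by their titles, which gave 2 Cxcr41013/1013 libraries (1013/1013) and 3 Cxcr4+/+ libraries (WT), 5 of the 17 libraries of the series. The 3 SSC libraries of heterozygous Cxcr4+/1013 mice (+/1013) entered the same fit, so that all genotypes shared 1 estimate of the spread. Each library was made from a pool of cells of 3 mice aged 8 to 12 weeks, so a replicate is a pool and not an animal. The 1013 allele is a germline knock-in, so every cell of a mutant mouse carried it, blood cells included.

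CXCR4 is the receptor of the chemokine CXCL12, which stromal cells of the marrow make in large amounts and which holds blood cells in the bone. The 1013 allele copies a truncation found in WHIM syndrome, an immunodeficiency. The receptor loses the end of its cytoplasmic tail, is poorly desensitized and internalized, and signals for longer. SSCs are rare cells of the bone surface and marrow that can give rise to osteoblasts, chondrocytes and adipocytes. The cells were sorted from the bone fraction as negative for CD45, Ter119 and CD31, which mark leukocytes, erythroid cells and endothelium, and positive for Sca-1 (encoded by Ly6a), CD51 (Itgav) and PDGFRα (Pdgfra). The question of the comparison is which transcripts of these early stromal cells differ when both Cxcr4 alleles carry the truncation.

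Levels are given as normalized CPM, that is, counts scaled to the library's total by the trimmed mean of M values (TMM), in the usual CPM unit. Fold changes are log2 fold changes of 1013/1013 over WT from edgeR's fit, with their standard error (SE). The adjusted p is that of Benjamini and Hochberg over the genes tested, and a call needed it to be under 0.05 with a difference of 1.5-fold or more. Groups are said not to overlap where both 1013/1013 libraries lay above, or both below, all 3 WT libraries. For a single value, 3 against 2 libraries allow no two-sided exact permutation p below 0.2.

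The 8 SSC libraries held between 44217695 and 50509592 gene counts, so the limit of detection used here, 3 counts, was 0.0594 to 0.0678 CPM before TMM scaling. It accounts for counting error alone, as duplicates made by PCR were not marked. The 1013/1013 replicate 1 stood apart, with 15748 genes with a count against 19222 in replicate 2 and at least 21449 in the WT libraries. It also held the most mitochondrial transcripts. Leukocyte markers summed to 13170 normalized CPM in WT replicate 3, against 1304 and 375 in the other WT libraries and 1199 and 746 in the 1013/1013 libraries. Ptprc, which encodes CD45, was at 149 in WT replicate 3, at 9.33 and 1.53 in the other WT pools and at 0.0462 and 11.1 in the 1013/1013 pools. Muscle markers summed to 190.1 and endothelial markers to 231 normalized CPM in 1013/1013 replicate 1, against 19.5 and 66.7 in replicate 2 and at most 41.6 and 82.5 in WT. The mice are described as females unless specified otherwise. Xist was at 0.0375 and the Y-linked Ddx3y at 91.5 normalized CPM in WT replicate 1, while Ddx3y was at 0 and Xist at 37.2 in WT replicate 2. The other 6 SSC libraries held both transcripts, and this difference between libraries was not part of any fit. Nothing in the labels names a batch, so a batch that runs with genotype and the genotype itself cannot be told apart.

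**Figure D1:**
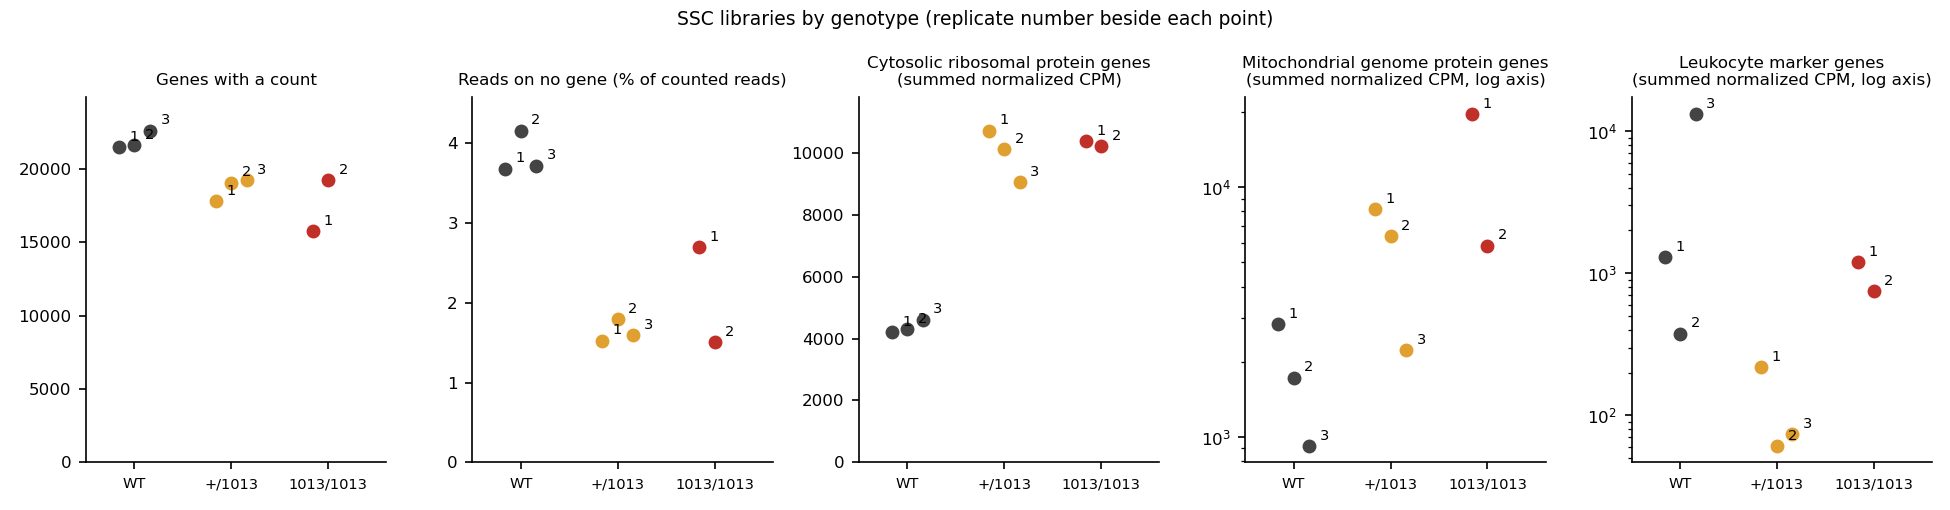
Genes with a count, share of counted reads that fell on no gene, and the summed normalized CPM of cytosolic ribosomal protein genes, of protein genes of the mitochondrial genome and of leukocyte markers, 1 point per SSC library with its replicate number. The ribosomal sum lay between 4213 and 4609 in WT and at 10377 and 10212 in 1013/1013, while the leukocyte sum was highest in WT replicate 3, at 13170.

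Of the 3 genes that the gate selects for, Pdgfra had the same level within the spread, Ly6a was higher and Itgav was lower in 1013/1013. Pdgfra was at 479, 503 and 423 normalized CPM in WT and at 580.5 and 413 in 1013/1013 (log2 fold change 0.08, SE 0.24). Ly6a was at 725, 468 and 505 in WT and at 1825 and 1014 in 1013/1013 (1.33, SE 0.34, adjusted p = 0.140 in edgeR's test). Itgav, an integrin subunit, was at 65.3, 60.1 and 74.4 in WT and at 38.9 and 32.1 in 1013/1013 (−0.91, SE 0.31, adjusted p = 0.205). With the trend over exon length described below removed, the values were 0.63 for Ly6a, −0.53 for Itgav and 0.43 for Pdgfra. None of the 3 then had an unadjusted p under 0.05 in edgeR's test. Of the genes gated against, Pecam1 was at most 11.2 in any of the 5 libraries, and the endothelial genes Cdh5 and Kdr were at most 2.47 and 12.4. All 12 endothelial genes tested nonetheless had a positive log2 fold change. Their median was 1.235, and 0.20 without 1013/1013 replicate 1, and 0 had an unadjusted p under 0.05 in edgeR's test. Ptprc, given above, reached 149 in WT replicate 3. The cells were also described as negative for c-Kit and CD71. Kit was at 1.97, 4.78 and 105 in WT and at 3.42 and 0.676 in 1013/1013. Tfrc, which encodes CD71, was at 27.9, 13.5 and 33.6 in WT and at 15.0 and 21.2 in 1013/1013. Transcripts of Ly6a, Itgav and Pdgfra were thus present in every pool, but WT replicate 3 stood apart in Ptprc and Kit.

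Cxcr4 itself was rare outside WT replicate 3. It was at 1.57, 0.873 and 59.0 normalized CPM in WT and at 0.138 and 1.01 in 1013/1013, and the groups overlapped. The library with 59.0 was the one with the highest leukocyte sum. Without it, the log2 fold change of Cxcr4, −5.15 with it, was −1.08. The allele removes the end of the coding sequence, so this transcript level is no check of the genotype. Cxcl12, the ligand, was at 659, 840.2 and 437 in WT and at 1004 and 1284 in 1013/1013 (0.83, SE 0.37), with no overlap. Ackr3, which encodes the scavenger receptor of the same ligand, was at 541, 396 and 382 in WT and at 492 and 875 in 1013/1013, with overlap. Among the kinases and adaptors that desensitize such receptors, Grk5 was at 15.4, 17.4 and 12.7 in WT and at 27.9 and 26.7 in 1013/1013 (0.85, SE 0.27, adjusted p = 0.181). Grk5 was at 14.9, 13.7 and 14.9 in +/1013. Grk3, of the same family, was lower without overlap, at 2.23, 2.64 and 10.2 in WT and at 0.185 and 0 in 1013/1013 (−5.73, SE 2.47). The log2 fold changes of Grk2, Grk6, Arrb1 and Arrb2 were also negative, at −0.93, −0.29, −0.40 and −1.67. Groups overlapped for Grk2, Grk6 and Arrb2, which were all highest in WT replicate 3. Without that library their values were −0.39, 0.04 and −0.62, so Grk6 changed sign. Arrb1 was lower without overlap, but at −0.01 with the trend over exon length described below removed. Of the 15 genes of the receptor axis that were tested, 3 had an unadjusted p under 0.05, against 18.3% of all genes. These were Grk5 and Gnai2, both higher, and Cxcr4. Gnai2, an inhibitory G protein subunit through which CXCR4 signals, differed little in size (0.40, SE 0.17).

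Over all genes, 0 of 17659 were called by edgeR, 0% of those tested, and the smallest adjusted p was 0.0671. An unadjusted p under 0.05 was found for 3224 genes (18.3%), of which 1478 were higher (8.37%) and 1746 lower (9.89%). The groups did not overlap for 7253 genes (41.1%), 2955 of them higher (16.7%) and 4298 lower (24.3%). Where only the 10970 genes were kept that reached 10 counts in each of the 8 libraries, edgeR called 54 (0.492%). Over the 17659 genes, DESeq2's Wald test called 1885 (10.7%), 673 higher (3.81%) and 1212 lower (6.86%). Without 1013/1013 replicate 2, edgeR called 2931 genes (691 higher), where replicate 1 alone stood for the genotype and was assumed to vary like the other groups, and without any other SSC library it called 0. The statements below on single genes therefore concern differences in level with their error, and none of them passed the adjusted threshold of edgeR's test. The median log2 fold change over the genes tested was −0.23, and over the 8808 genes of a mean of at least 10 normalized CPM it was 0.01. Among the latter, 2087 genes were higher without overlap (23.7%) and 1827 lower (20.7%).

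The fold change ran with the length of the transcript. Over 8724 protein-coding genes of a mean of at least 10 normalized CPM, split into 10 classes by summed exon length, the median log2 fold change was 0.62 in the shortest class and −0.53 in the longest. In the shortest class 60.2% of genes were higher without overlap and 1.38% lower, and in the longest 5.50% were higher and 44.4% lower. Spearman's rho across these genes was −0.45 as a description, since genes of 1 library share its depth and its preparation. The same trend stood between +/1013 and the same WT libraries, from 0.56 to −0.48. It ran only from 0.06 to −0.08 between 1013/1013 and +/1013. In osteoprogenitor cells (OPCs), sorted and sequenced in the same study, it ran from −0.16 to 0.07. Within single libraries, the median log2 level of the shortest class minus that of the longest was −0.18, −0.34 and −0.54 in WT, 0.83, 0.64 and 0.45 in +/1013, and 0.94 and 0.65 in 1013/1013. WT and mutant libraries did not overlap in this measure. The fit was therefore also run with this trend removed within each library, and list medians are given both ways below. The part of library preparation in the trend was not tested.

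**Figure D2:**
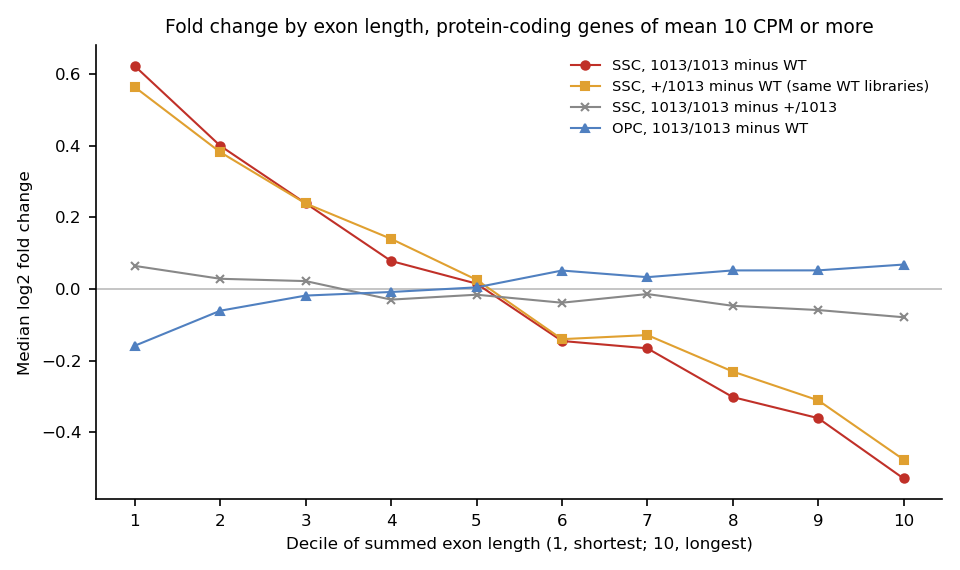
Median log2 fold change (vertical axis) in 10 classes of protein-coding genes by summed exon length (horizontal axis), for 4 comparisons drawn as lines. The line of 1013/1013 minus WT SSCs ran from 0.62 to −0.53 and that of +/1013 minus WT from 0.56 to −0.48, while 1013/1013 minus +/1013 SSCs and 1013/1013 minus WT OPCs ran near 0.

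Genes of the cytosolic ribosome, whose proteins make up the particle that translates messenger RNA, were higher in 1013/1013 as a group. Of 80 genes, 78 had a positive log2 fold change. Higher at an unadjusted p under 0.05 were 76 and higher without overlap 77, against 8.37% and 16.7% of all genes. DESeq2 called 76 of them as higher, against 3.81% of all genes. The median log2 fold change was 1.22, and 0.70 with the length trend removed. In that fit 56 had an unadjusted p under 0.05 in the higher direction, beside 1013 of all 17659 genes. In the shortest class (383 to 1973 bases) 60.2% of genes were higher without overlap. The median exon length of the 80 ribosomal genes, 1754 bases, lies within that class. Their median log2 distance to the WT mean was −0.02, 0.03 and −0.01 in WT libraries against 1.22 and 1.17 in 1013/1013 libraries, so this group varied little between pools of a genotype. Rpl32 (ENSMUSG00000057841.5, mm10 chromosome 6, 115805505 to 115808747), of the large subunit, was at 60.7, 58.2 and 66.7 normalized CPM in WT and at 180.4 and 175 in 1013/1013 (1.52, SE 0.17, adjusted p = 0.0671). Rps20, of the small subunit, was at 33.1, 34.2 and 33.8 in WT and at 81.5 and 98.5 in 1013/1013 (1.42, SE 0.16). Rps13 had the largest fold of those named, from 29.8, 29.1 and 35.7 to 100.2 and 92.4 (1.61, SE 0.18). Rpl24 and Rps10, singled out after their values were seen, were the exceptions, at −2.69 and −3.17. Both were below 3 normalized CPM in every library, far under the other subunits. Reads that aligned to more than 1 place made up 5.54%, 5.10% and 5.65% of counted reads in WT and 8.56% and 6.76% in 1013/1013. Whether such reads also entered the gene counts is not given, and their part in any ribosomal gene was not tested.

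Genes that feed oxidative phosphorylation, the mitochondrial process that makes most ATP, were also higher. Of 74 genes encoded in the nucleus, all 74 had a positive log2 fold change, 62 had an unadjusted p under 0.05 and 69 did not overlap, against 8.37% and 16.7% of all genes in that direction. Their median was 0.93, and 0.31 with the length trend removed, where 25 had an unadjusted p under 0.05, beside 1013 higher of all 17659 genes. Their median exon length was 1696 bases, within the shortest class, where 60.2% of genes were higher without overlap. Cox4i1, a subunit of cytochrome c oxidase, was at 144, 139 and 111 normalized CPM in WT and at 382 and 325 in 1013/1013 (1.43, SE 0.19, adjusted p = 0.0671). Ndufb9, of complex I, was at 33.0, 29.97 and 24.1 in WT and at 76.6 and 64.9 in 1013/1013 (1.28, SE 0.21). Atp5o, of ATP synthase, was at 23.6, 24.5 and 21.4 in WT and at 63.7 and 45.4 in 1013/1013 (1.24, SE 0.21).

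The protein genes of the mitochondrial genome differed more, and also varied more between pools. All 12 tested were higher without overlap and 11 had an unadjusted p under 0.05, against 16.7% and 8.37% of all genes in that direction. Their median was 3.20 (2.49 with the length trend removed). These genes are short, with a median exon length of 870.5 bases, within the shortest class above. Their summed level was 2830.5, 1727 and 922 normalized CPM in WT and 19611 and 5831 in 1013/1013. The higher 1013/1013 value came from replicate 1, and without that library the median was 1.98. In +/1013 the sum was 8140.1, 6347 and 2231, and its lowest value lay within the WT range. mt-Co1, the catalytic subunit of cytochrome c oxidase, was at 569, 339 and 318 in WT and at 3086 and 1569 in 1013/1013 (2.51, SE 0.53, adjusted p = 0.107). mt-Nd2, a subunit of complex I, was at 123, 54.4 and 31.2 in WT and at 1443 and 337 in 1013/1013 (3.68, SE 0.92).

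Mitochondrial ribosomal proteins and the proteasome, which degrades ubiquitin-tagged proteins, showed smaller differences in the same direction. Of 75 mitochondrial ribosomal genes, 70 had a positive log2 fold change and 33 an unadjusted p under 0.05, against 8.37% of all genes in that direction, with a median of 0.71 (0.33 with the length trend removed). Mrpl13 was at 31.2, 26.0 and 25.7 normalized CPM in WT and at 77.4 and 64.8 in 1013/1013 (1.36, SE 0.21, adjusted p = 0.0738). Of 37 proteasome genes, 36 were positive and 25 had an unadjusted p under 0.05, against the same 8.37%, with a median of 0.77 (0.41 with the length trend removed). The exception was Psma8, a germline subunit. Psmb1, of the catalytic core, was at 94.4, 88.6 and 80.0 in WT and at 210.2 and 173 in 1013/1013 (1.13, SE 0.17, adjusted p = 0.0738).

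**Figure D3:**
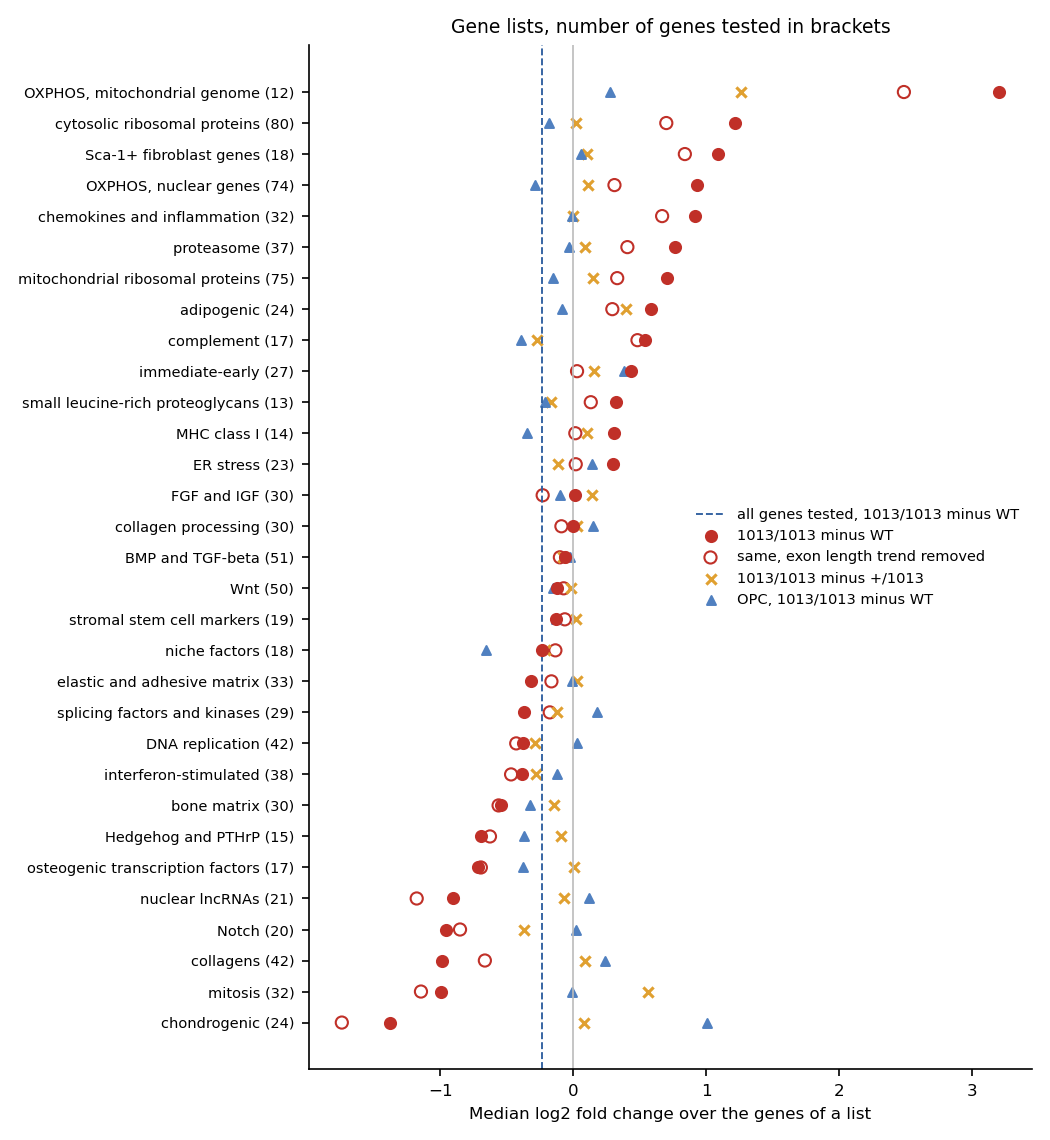
Median log2 fold change (horizontal axis) of the genes of each list (vertical axis, number tested in brackets) for 1013/1013 minus WT SSCs, the same with the exon length trend removed, 1013/1013 minus +/1013 SSCs and 1013/1013 minus WT OPCs. Ribosomal and oxidative phosphorylation lists lay at 0.70 or above in the SSC comparison, collagens at −0.99 and cartilage genes at −1.38.

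Most collagen genes went the other way. Of 42 collagen genes tested, 34 had a negative log2 fold change, 15 an unadjusted p under 0.05 in that direction and 24 were lower without overlap, against 9.89% and 24.3% of all genes. The 1 collagen with an unadjusted p under 0.05 and a positive value was Col4a4, named after its values were seen. The median was −0.99, and −0.66 with the length trend removed, where 10 were lower at that threshold, beside 1674 of all 17659 genes. Col1a1, the main chain of bone collagen, was at 10666, 12796 and 9393 normalized CPM in WT and at 2063 and 3095 in 1013/1013 (−2.09, SE 0.53, adjusted p = 0.136). Col16a1 was at 331, 585 and 339.9 in WT and at 94.1 and 185 in 1013/1013 (−1.58, SE 0.46). Col6a3, a chain of the microfibrillar type VI collagen, was at 736, 939.8 and 633 in WT and at 429.7 and 380.2 in 1013/1013 (−0.93, SE 0.27). Col1a2, the second chain of type I collagen, differed less than Col1a1 (−0.56, SE 0.33), and −0.14 with the length trend removed.

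Fibronectin, an adhesive glycoprotein to which integrins bind, was among the most abundant transcripts that were lower. Fn1 (ENSMUSG00000026193.15, mm10 chromosome 1, 71585520 to 71653200) was at 11340, 10714 and 10012 normalized CPM in WT and at 3184 and 2486 in 1013/1013 (−1.92, SE 0.39, adjusted p = 0.106). Itga5, a subunit of its receptor, was at 228, 226 and 231 in WT and at 92.2 and 172 in 1013/1013 (−0.79, SE 0.33). Tnc, which encodes tenascin C of growing and injured connective tissue, was at 254, 781 and 349.7 in WT and at 29.4 and 125 in 1013/1013 (−2.59, SE 0.72). Tnn, another tenascin, was at 199.9, 229 and 203 in WT and at 2.95 and 29.7 in 1013/1013 (−3.69, SE 0.92, adjusted p = 0.136). Postn, which encodes periostin of the periosteum, was at 803, 477 and 689.7 in WT and at 229 and 181 in 1013/1013 (−1.68, SE 0.50). Unlike Fn1, Postn was not low in all +/1013 pools, where it was at 579.6, 939.7 and 281. The transcripts of Fn1, Itga5, Tnc, Tnn and Postn lay below every WT pool in both 1013/1013 pools.

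Cartilage genes had the lowest median of the matrix lists, −1.38 over 24 genes, with 13 lower without overlap and 7 at an unadjusted p under 0.05 in that direction, against 24.3% and 9.89% of all genes. Their levels in WT differed widely between pools. Col2a1, the collagen of hyaline cartilage, was at 4012, 649 and 553 normalized CPM in WT and at 4.43 and 65.7 in 1013/1013 (−5.63, SE 1.79, adjusted p = 0.185). Col9a2, a collagen on the surface of its fibrils, was at 319, 48.4 and 38.6 in WT and at 6.74 and 16.7 in 1013/1013 (−3.53, SE 1.28). Sox9, the transcription factor that establishes chondrocytes, was at 204, 83.0 and 81.5 in WT and at 51.7 and 152 in 1013/1013, with overlap (−0.27, SE 0.57). Prg4, which encodes lubricin of joint surfaces, was at 6501, 6209.9 and 4583 in WT and at 3288 and 3381 in 1013/1013 (−0.79, SE 0.28). In a pool of sorted cells, fewer cells of a kind and less RNA per cell cannot be told apart, and WT replicate 1 held the highest level of Col2a1, Col9a2 and Sox9.

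Other matrix genes did not follow the collagens. Of 13 small leucine-rich proteoglycans, which coat collagen fibrils, 10 had a positive value and 1, Dcn, had an unadjusted p under 0.05, with a median of 0.33. Dcn, which encodes decorin and was the most abundant gene named here, was at 31756, 23463 and 20336 normalized CPM in WT and at 52466 and 54430 in 1013/1013 (1.08, SE 0.33, adjusted p = 0.176). Of 30 genes that fold, cross-link and trim collagen, 15 were positive and 15 negative. Ppib, a prolyl isomerase of the endoplasmic reticulum, was at 83.7, 78.9 and 66.5 in WT and at 170.0 and 156 in 1013/1013 (1.09, SE 0.18, adjusted p = 0.0798). Loxl2, a cross-linking oxidase, was at 69.1, 58.4 and 65.1 in WT and at 43.6 and 34.6 in 1013/1013 (−0.72, SE 0.28).

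Among proteases, Ctsl, which encodes the lysosomal protease cathepsin L, was at 651, 649 and 524 normalized CPM in WT and at 1772 and 1624 in 1013/1013. Its log2 fold change was 1.48 (SE 0.21, adjusted p = 0.0671), and 1.65 with the length trend removed. Adamts10, of the family that processes microfibrils, was at 104, 166 and 94.1 in WT and at 19.4 and 12.7 in 1013/1013 (−2.92, SE 0.45, adjusted p = 0.0744). Adamts5, which cleaves aggrecan, was at 127, 115 and 60.8 in WT and at 284 and 166 in 1013/1013 (1.15, SE 0.35). Over the 36 proteases and inhibitors tested, 5 had an unadjusted p under 0.05 and a positive value (Ctsl, Adamts5, Timp4, Ctsb and Ctsk). At that threshold 1 had a negative value (Adamts10). The shares over all genes were 8.37% and 9.89%.

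**Figure D4:**
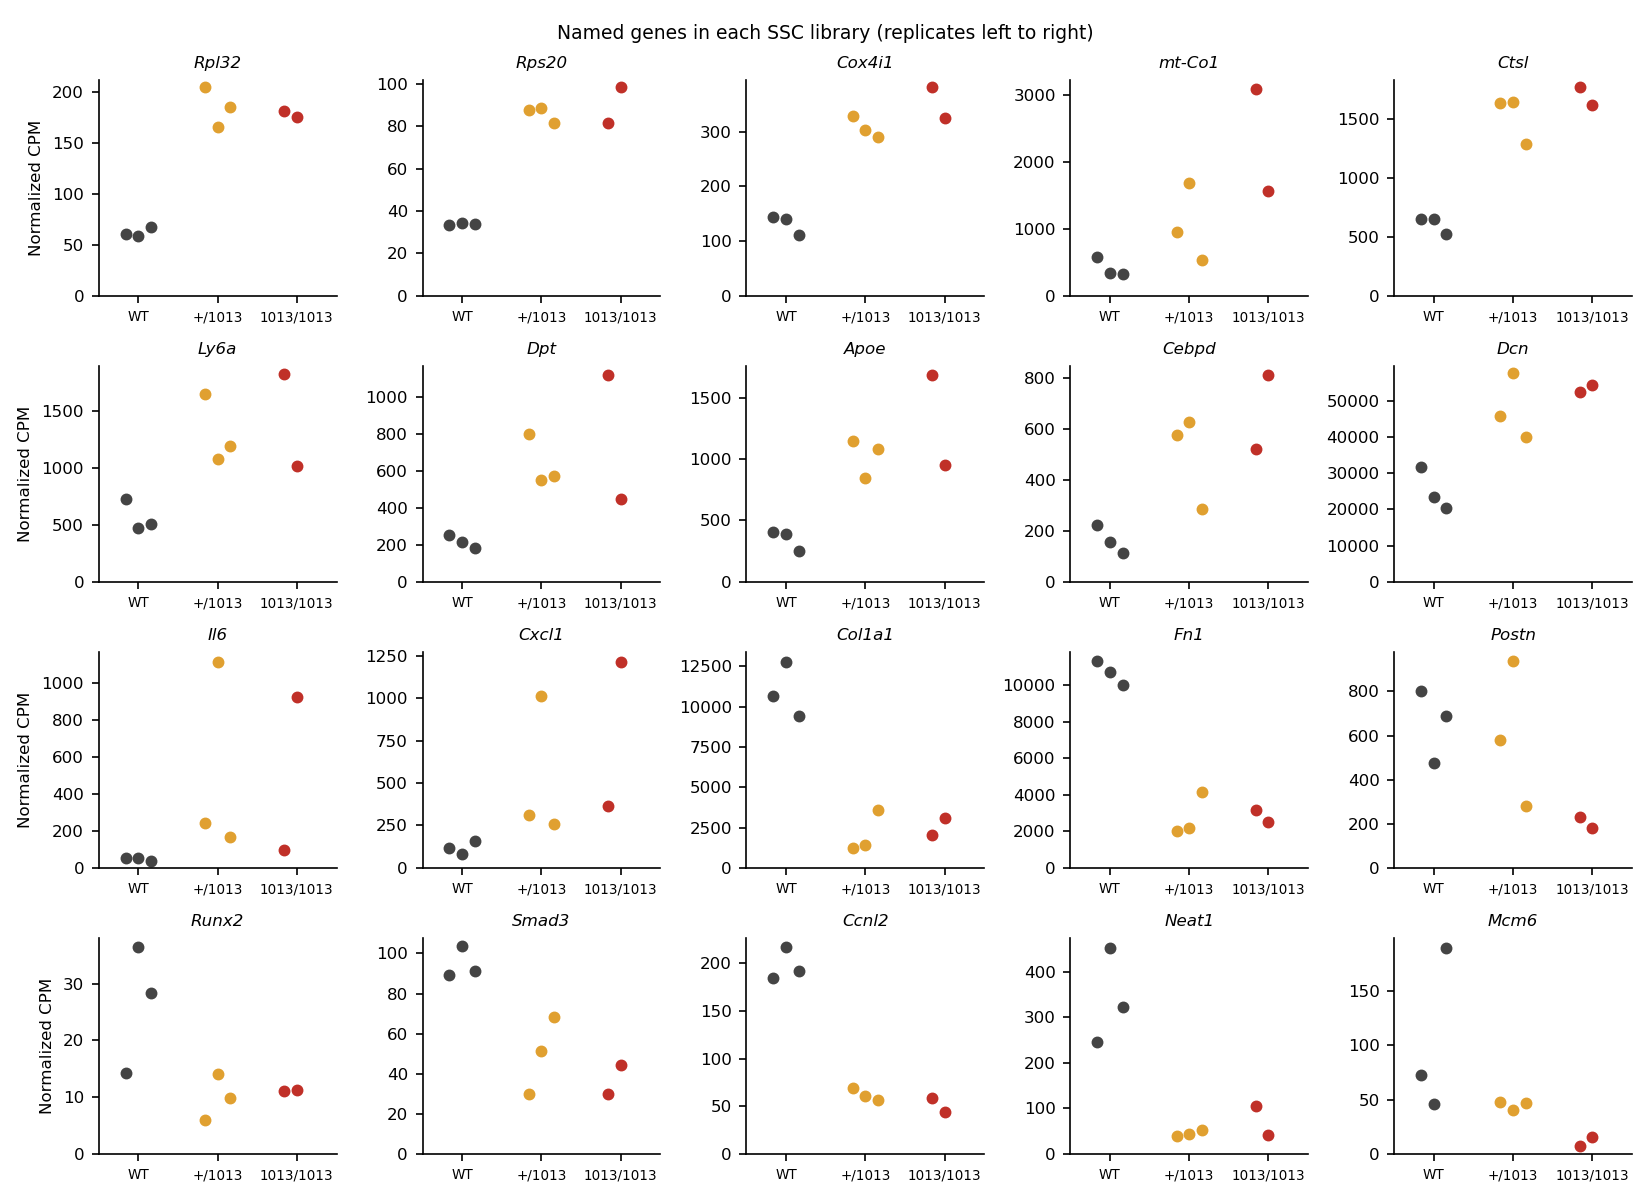
Normalized CPM (vertical axis, from 0) of 20 genes in each SSC library, by genotype. Rpl32, Rps20, Cox4i1 and Ctsl lay in narrow bands that did not overlap between WT and 1013/1013, while Il6 and Cxcl1 differed by several fold between the 2 1013/1013 pools, and Fn1, Col1a1, Ccnl2 and Neat1 lay below every WT pool.

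The osteogenic transcription factors gave no uniform picture. Of 17 tested, 13 had a negative value, with a median of −0.71, but it was −0.22 without 1013/1013 replicate 1. Runx2, which commits cells to the osteoblast lineage, was at 14.2, 36.4 and 28.3 normalized CPM in WT and at 11.1 and 11.2 in 1013/1013 (−1.24, SE 0.51). Zfp521, a zinc finger protein that binds Runx2, was at 139, 178 and 117 in WT and at 51.8 and 76.4 in 1013/1013 (−1.18, SE 0.33, adjusted p = 0.160). Sp7, the factor that acts after Runx2, was at 13.7, 41.4 and 17.5 in WT and at 0.0462 and 14.6 in 1013/1013, with overlap. Twist1, which restrains Runx2, was at 24.2, 21.8 and 17.4 in WT and at 44.1 and 39.3 in 1013/1013 (0.98, SE 0.26). Atf4, a stress-responsive factor that osteoblasts need for collagen synthesis, was at 295, 238 and 277 in WT and at 500.0 and 694 in 1013/1013 (1.14, SE 0.33). Msx1 was the remaining one with an unadjusted p under 0.05 and a positive value.

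Genes of the mineralizing matrix were split between the 1013/1013 pools. Their median over 30 genes was −0.54, but their median log2 distance to the WT mean was −1.21 in replicate 1 against 0.13 in replicate 2, and without replicate 1 the list median was 0.10. Alpl, the alkaline phosphatase of osteoblasts, was at 201, 579.5 and 179 normalized CPM in WT and at 24.1 and 402 in 1013/1013. Ibsp, which encodes bone sialoprotein, was at 1026, 1195 and 521 in WT and at 376 and 1862 in 1013/1013. Spp1, which encodes osteopontin, was at 3406, 1793 and 1934 in WT and at 2472 and 4332 in 1013/1013. Bglap, which encodes osteocalcin, was at 54.4, 44.1 and 14.9 in WT and at 6.49 and 60.7 in 1013/1013. Groups overlapped for all 4, and their log2 fold changes, from −0.59 to 0.52, were smaller than their standard errors. Serpinf1, which encodes the secreted factor PEDF, was at 2444, 3225 and 1923 in WT and at 4293 and 5326 in 1013/1013 (0.93, SE 0.27). Smpd3, a sphingomyelinase of mineralizing tissue, was at 112, 95.6 and 55.8 in WT and at 54.6 and 19.8 in 1013/1013 (−1.24, SE 0.47).

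Genes by which stromal cells steer osteoclasts also differed in few cases. Tnfsf11, which encodes the osteoclast factor RANKL, was at 4.42, 5.35 and 7.32 normalized CPM in WT and at 1.89 and 5.07 in 1013/1013. Tnfrsf11b, which encodes its decoy receptor osteoprotegerin, was at 399, 167 and 197 in WT and at 55.4 and 286 in 1013/1013. Both overlapped between the groups. Sema3a, a semaphorin that restrains osteoclasts, was at 50.1, 56.0 and 36.6 in WT and at 10.2 and 13.9 in 1013/1013 (−1.98, SE 0.51, adjusted p = 0.141). Of the 20 genes of this list, Sema3a and Il6 were those with an unadjusted p under 0.05.

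Genes that mark Sca-1+ fibroblasts of connective tissue were higher as a group. Of 18, 17 had a positive value, 11 had an unadjusted p under 0.05 and 11 did not overlap, against 8.37% and 16.7% of all genes in that direction. Their median was 1.09 (0.84 with the length trend removed). The list holds Ly6a, which the gate selects for, and its median was 0.55 without 1013/1013 replicate 1. Ly6c1, a surface protein of the same family as Sca-1, was at 451, 261 and 328 normalized CPM in WT and at 1274 and 822 in 1013/1013 (1.59, SE 0.31, adjusted p = 0.100). Dpt, which encodes dermatopontin of collagen fibrils, was at 253, 212 and 180.2 in WT and at 1117 and 446 in 1013/1013 (1.86, SE 0.38). Mfap5, a microfibril protein, was at 389.7, 319 and 279 in WT and at 1123 and 483 in 1013/1013 (1.28, SE 0.36). In each of these genes replicate 1 was the higher of the mutant pools, and both lay above WT.

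Genes of fat cells and lipid handling gave a mixed set. Of 24 adipogenic genes, 16 were positive. An unadjusted p under 0.05 was found for 5 of these (Apoe, Cebpd, Angptl4, Lpl and Ebf2), against 8.37% of all genes in that direction. Cebpd, an early transcription factor of adipogenesis and of inflammation, was at 224, 155 and 113 normalized CPM in WT and at 522 and 812 in 1013/1013 (2.02, SE 0.42, adjusted p = 0.107). Apoe, which encodes a lipid carrier, was at 408, 392 and 249.7 in WT and at 1688 and 951 in 1013/1013 (1.91, SE 0.33, adjusted p = 0.0843). Lpl, which frees fatty acids from lipoproteins, was at 173, 138 and 78.0 in WT and at 818 and 202 in 1013/1013 (1.97, SE 0.56). Pparg, the factor that fixes the fat cell fate, was at 5.28, 3.67 and 9.25 in WT and at 10.5 and 7.48 in 1013/1013, with overlap. Apod, another lipid carrier, had 1 of the largest folds, from 1037, 1516 and 501 to 17674 and 2671 (3.32, SE 0.74), and replicate 1 made most of it.

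Among factors that support hematopoietic cells, Igf1 was at 206, 129 and 151 normalized CPM in WT and at 356 and 310.1 in 1013/1013 (1.04, SE 0.23, adjusted p = 0.118). Jag1, a Notch ligand, was at 29.0, 34.1 and 29.7 in WT and at 19.7 and 15.3 in 1013/1013 (−0.82, SE 0.24). Lepr, the leptin receptor of marrow stroma, was at 309, 284 and 179 in WT and at 182 and 289 in 1013/1013, with overlap (−0.13, SE 0.29). Over the 18 niche factors, 7 were positive and 11 negative, with a median of −0.24, close to that of all genes.

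Chemokines and inflammatory mediators were mostly higher, and differed widely between pools. Of 32, 23 had a positive value and 9 of these an unadjusted p under 0.05, against 8.37% of all genes in that direction, while Cxcl9, which was lower, was the 1 negative gene at that threshold. The median was 0.92 (0.67 with the length trend removed). Il6, a cytokine of acute inflammation and bone turnover, was at 52.7, 51.0 and 39.2 normalized CPM in WT and at 94.3 and 925 in 1013/1013 (3.42, SE 1.03, adjusted p = 0.174). Cxcl1, a neutrophil attractant, was at 118, 81.5 and 158 in WT and at 367 and 1216 in 1013/1013 (2.73, SE 0.71). Ptx3, a soluble pattern recognition protein, was at 18.3, 16.2 and 16.8 in WT and at 45.9 and 236 in 1013/1013 (3.04, SE 0.74). Replicate 2 was the higher mutant pool for all 3 of these genes. Il1b, a macrophage and neutrophil cytokine, was instead highest in replicate 1, at 144, against 23.2 in replicate 2 and at most 22.3 in WT.

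Immediate-early genes, which cells switch on within minutes of a stimulus and which tissue digestion also induces, were, like Il6 and Cxcl1, higher in 1013/1013 replicate 2 than in replicate 1. Their median log2 distance to the WT mean was 0.88 in 1013/1013 replicate 2 against −0.26 in replicate 1. Fos was at 6422, 6020.1 and 5934 normalized CPM in WT and at 8483 and 11193 in 1013/1013 (0.68, SE 0.31). Atf3 was at 762, 479 and 1133 in WT and at 1287 and 2907 in 1013/1013 (1.40, SE 0.55), and it alone of 27 had an unadjusted p under 0.05. Myc was at 207, 227 and 202 in WT and at 177 and 1009 in 1013/1013, with overlap. The part of cell handling in the inflammatory genes was not tested.

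Of 17 complement genes, 14 had a positive value, with a median of 0.54 (0.48 with the length trend removed). Without overlap, 6 were higher and 1 lower, against 16.7% and 24.3% of all genes. An unadjusted p under 0.05 was found for 3, all with a positive value, against 8.37% of all genes in that direction. Serping1, the inhibitor of the first complement component, was at 2658, 2774 and 1916 normalized CPM in WT and at 5259 and 4693 in 1013/1013 (1.02, SE 0.25, adjusted p = 0.132). C1ra, a protease of that component, was at 234, 283 and 178 in WT and at 585 and 395 in 1013/1013 (1.08, SE 0.30). The interferon-stimulated genes had no common direction, with 17 of 38 positive and 21 negative. Ifitm3, which blocks viral entry, was at 286, 361 and 237 in WT and at 837 and 549.7 in 1013/1013 (1.23, SE 0.28). Stat2, which carries the interferon signal to the nucleus, was at 38.0, 39.3 and 50.9 in WT and at 17.3 and 20.4 in 1013/1013 (−1.18, SE 0.28, adjusted p = 0.124).

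Signalling pathways of bone likewise differed gene by gene. In the Wnt pathway, which drives osteoblast formation, 24 of 50 genes were positive. The antagonist Dkk2 was at 45.8, 28.5 and 29.0 normalized CPM in WT and at 49.5 and 92.5 in 1013/1013 (1.04, SE 0.31), and the agonist Rspo2 at 19.7, 33.9 and 22.6 and at 6.88 and 13.9 (−1.29, SE 0.44). Sfrp2, a secreted Wnt binder, was at 65.7, 135 and 67.7 in WT and at 40.3 and 17.9 in 1013/1013 (−1.62, SE 0.53). In the BMP and TGF-β pathway, 25 of 51 genes were positive. Smad3, which carries the TGF-β signal, was at 89.1, 104 and 91.4 in WT and at 29.9 and 44.3 in 1013/1013 (−1.35, SE 0.36, adjusted p = 0.148). Fst, which encodes the activin antagonist follistatin, was at 70.0, 62.3 and 39.5 in WT and at 251 and 117 in 1013/1013 (1.68, SE 0.38), and Id3, a target of BMP signals, was at 840.2, 864 and 559 and at 1177 and 2108 (1.12, SE 0.33).

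Growth factor genes of the FGF and IGF families were positive in 16 of 30 cases. Fgf7, a fibroblast-derived growth factor for epithelia, was at 24.8, 29.9 and 21.2 normalized CPM in WT and at 63.1 and 53.2 in 1013/1013 (1.20, SE 0.21, adjusted p = 0.0843). Igfbp4, which binds IGF, was at 374, 545 and 378 in WT and at 2199.7 and 829 in 1013/1013 (1.81, SE 0.46). Spry2, which limits FGF receptor signals, was at 3.41, 2.40 and 1.97 in WT and at 21.9 and 9.06 in 1013/1013 (2.58, SE 0.56). Of 20 Notch genes, 18 were negative, with a median of −0.96, but many were rare and 2, Jag1 and Lfng, had an unadjusted p under 0.05. Of 15 Hedgehog and PTHrP genes, 12 were negative, and Hhip, which binds Hedgehog ligands, was at 94.9, 51.8 and 37.1 in WT and at 9.58 and 29.9 in 1013/1013 (−1.64, SE 0.66).

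The lower genes with the smallest p were of several functions. Adamts10, described above, was one of them, and Tmem94, Abca7 and Leng8 were others, at −2.35, −2.80 and −3.17. Ccnl2 (ENSMUSG00000029068.16, mm10 chromosome 4, 155812489 to 155824543), a cyclin that localizes with splicing factors, was at 185, 217 and 192 normalized CPM in WT and at 59.1 and 44.3 in 1013/1013 (−1.94, SE 0.21, adjusted p = 0.0671). It kept a value of −1.83 with the length trend removed. Ogt, the enzyme that attaches O-GlcNAc to nuclear proteins, was at 77.1, 135 and 121 in WT and at 17.9 and 28.7 in 1013/1013 (−2.25, SE 0.33, adjusted p = 0.0671). Med12, of the Mediator complex, was at 25.2, 40.2 and 39.6 in WT and at 8.26 and 5.002 in 1013/1013 (−2.40, SE 0.38). Edc4 and Pan2, which act in the removal of the cap and the tail of messenger RNA, were at −1.64 (SE 0.24) and −1.53 (SE 0.24). Of 29 splicing factors and their kinases, 27 had a negative value and 15 were lower without overlap, against 24.3% of all genes. The median was −0.37, and −0.18 with the length trend removed, against −0.32 for all genes in that fit.

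RNAs that stay in the nucleus were mostly lower as well, as were lincRNAs at large. Of 21 long non-coding RNAs of this kind or hosts of small nucleolar RNAs, 19 had a negative value, 7 were lower at an unadjusted p under 0.05 and 11 lower without overlap, against 9.89% and 24.3% of all genes. Their median was −0.90, and −1.18 with the length trend removed, beside −0.84 and −1.30 over all 568 lincRNAs tested. Neat1, the scaffold of nuclear paraspeckles, was at 245, 452 and 322 normalized CPM in WT and at 106 and 40.8 in 1013/1013 (−2.21, SE 0.46, adjusted p = 0.107). Meg3, an imprinted RNA, was at 29.1, 17.7 and 12.2 in WT and at 1.55 and 0.451 in 1013/1013 (−4.30, SE 0.97). Reads that fell on no gene made up 3.68%, 4.15% and 3.72% of counted reads in WT and 2.69% and 1.504% in 1013/1013, and lincRNAs 0.261%, 0.356% and 0.252% of gene counts against 0.175% and 0.0981%. Both shares were below WT in both mutant pools, and their part in these genes was not tested. H19, another imprinted RNA, went the other way, from 6.07, 10.6 and 9.17 to 65.8 and 19.02 (2.30, SE 0.57).

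Mitosis genes as a list were highest in WT replicate 3, which also held the leukocyte transcripts. The median of 32 mitosis genes was −0.99, but 0.67 without that library, so its direction rested on 1 pool. Hjurp, the chaperone of the centromeric histone, was at 79.3, 91.2 and 127 normalized CPM in WT and at 39.4 and 37.6 in 1013/1013 (−1.37, SE 0.26, adjusted p = 0.0962), a difference that all pools shared. Mcm6, a subunit of the replicative helicase and a neighbour of Cxcr4 on chromosome 1, was at 72.1, 46.3 and 189 in WT, at 47.7, 40.0 and 46.8 in +/1013 and at 6.92 and 15.6 in 1013/1013 (−3.19, SE 0.67, adjusted p = 0.107). Of 14 tested genes next to Cxcr4, Ccnt2 was also lower in 1013/1013, at 19.7 and 11.7 against 43.0, 42.6 and 46.9 in WT (−1.49, SE 0.31). In +/1013 the lowest pool had Ccnt2 at 14.7 and the middle one at 15.4.

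Some genes were not detected in either 1013/1013 library. With at least 10 counts in every WT library and 0 in both 1013/1013 libraries there were 331 genes, 213 of them protein-coding. Most were rare in WT, with a median WT mean of 0.780 normalized CPM, and 277 of them had a count in at least 1 +/1013 library. The genes were selected by these same counts, so the bounds below describe them and are no test. Replicates 1 and 2 of 1013/1013 held 15748 and 19222 genes with a count, against at least 21449 in WT. The part of this difference in the zeros was not tested. A count of 0 allows a level of up to 3 counts per library, or 0.0684 normalized CPM on average. Miat, a long non-coding RNA, was at 5.47, 6.95 and 3.59 in WT and 0 in both 1013/1013 libraries, at least 78.0-fold lower. Srpk3, a kinase of splicing factors, was at 3.43, 2.00 and 3.63 in WT, at least 44.1-fold lower in 1013/1013. Slc15a2, a peptide transporter, was at 2.30, 1.84 and 2.82 in WT and at 3.99, 2.75 and 1.60 in +/1013, and was at least 33.9-fold lower in 1013/1013. Itgb2l had the largest bound, at least 515-fold lower, but its WT level came mainly from WT replicate 3 (5.83, 2.45 and 97.4), the pool with the leukocyte transcripts. Caprin2 was near this limit in 1013/1013, at 0.0462 and 0.113, against 7.34, 7.53 and 5.84 in WT and 6.33, 5.93 and 3.36 in +/1013.

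**Figure D5:**
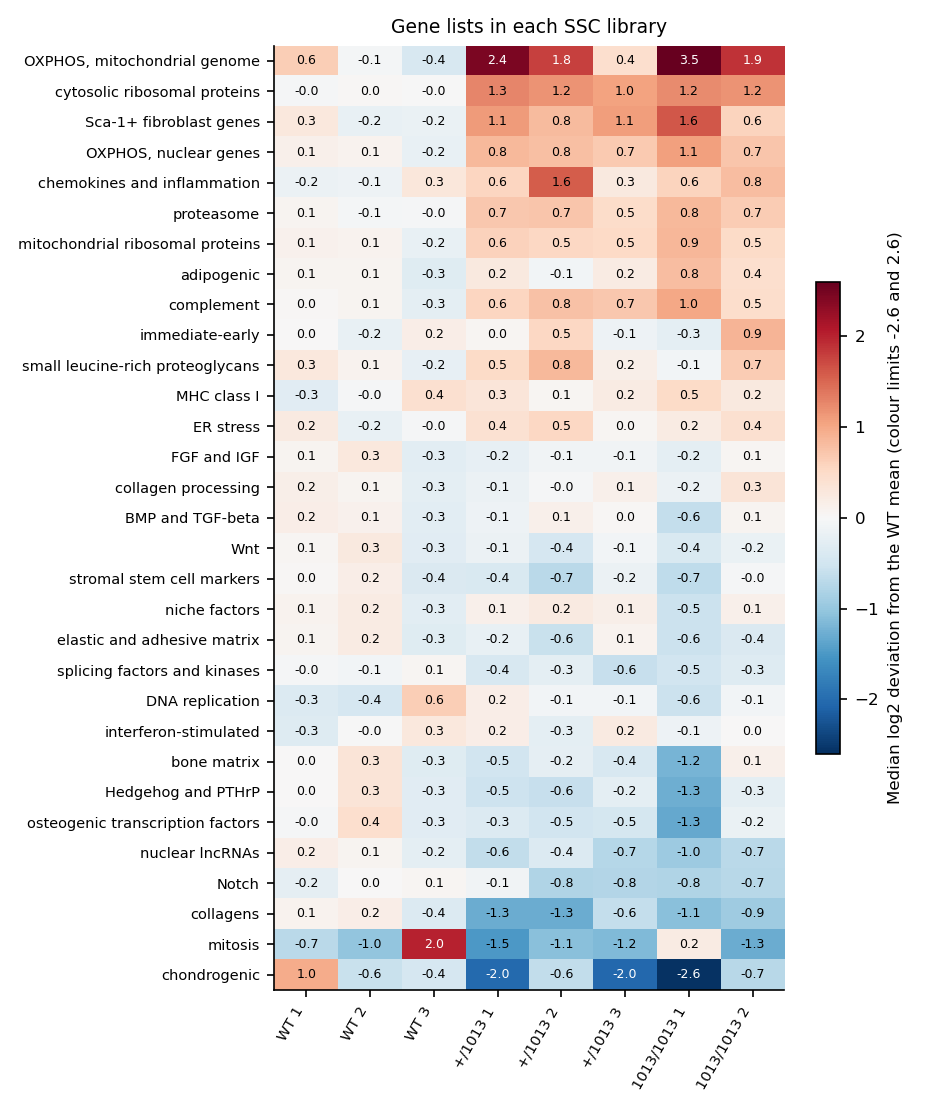
Median log2 deviation from the WT mean (colour, value in each cell, computed with 0.5 added to normalized CPM) of each gene list (rows) in each SSC library (columns). The cytosolic ribosomal row lay between 1.05 and 1.26 in every mutant library, the bone matrix row was −1.21 in 1013/1013 replicate 1 and 0.13 in replicate 2, and the mitosis row was highest in WT replicate 3.

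The 1013/1013 and +/1013 SSCs were compared directly, since this does not use the levels of the WT libraries. Of 17659 genes 0 were called by edgeR, 0% of those tested, the smallest adjusted p was 0.788, and 977 had an unadjusted p under 0.05 (5.53%). DESeq2 called 239. The ribosomal list had a median of 0.02, the nuclear oxidative phosphorylation list of 0.11, the collagens of 0.09 and the Sca-1+ fibroblast genes of 0.11 in this comparison. Against the same WT libraries, the medians in +/1013 were 1.16, 0.78, −1.16 and 0.99, beside 1.22, 0.93, −0.99 and 1.09 in 1013/1013, and these comparisons share their controls. The median over the mitochondrial genome was 1.27 higher in 1013/1013 than in +/1013. Slc15a2 and Caprin2 were the genes named above that stood at WT-like levels in +/1013 and near or under the limit of detection in 1013/1013. Their adjusted p between the mutant genotypes was 0.788 for both.

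The effect in SSCs was set against that in OPCs, the more committed progenitors of the bone, in a fit of all 17 libraries. The effect of 1013/1013 differed between the cell types for 31 of 20238 genes, 0.153% of those tested, 24 of them with the higher value in SSCs. Of these 31, 18 were cytosolic ribosomal protein genes, and 66 of the 80 had an unadjusted p under 0.05, against 15.01% of all genes. The median of the ribosomal list was −0.18 between 1013/1013 and WT OPCs, that of nuclear oxidative phosphorylation −0.29 and that of the collagens 0.24. Rpl32 had a log2 fold change of −0.31 in OPCs, and the difference between the effects was 1.83 (adjusted p = 0.0230). Ctsl was at −0.58 in OPCs, and its effects differed by 2.05 (adjusted p = 0.0230). Ccnl2 was at 0.24 in OPCs, and its effects differed by −2.20 (adjusted p = 0.0202). Cox4i1 was at −0.33 in OPCs, with a difference of 1.74 (adjusted p = 0.0361). With the exon length trend removed within each library, 7 genes were called in place of 31, 2 of them with the higher value in SSCs. Ctsl (adjusted p = 0.0486) and Ccnl2 (adjusted p = 0.0464) were still called, and Rps20 (difference 1.60, adjusted p = 0.0205) was the 1 ribosomal gene left of 18. Rpl32 and Cox4i1 lost the call, with differences of 0.82 (adjusted p = 0.279) and 1.05 (adjusted p = 0.159). Over the ribosomal list the median difference was 1.40, and 0.82 with the trend removed, where 43 had an unadjusted p under 0.05 against 13.5% of all genes.

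The count of genes called in this difference rested on single libraries. It was 0 with only WT and 1013/1013 libraries, where the adjusted p of Rpl32, Ctsl and Ccnl2 was 0.132. It was also 0 without 1013/1013 SSC replicate 1 or OPC WT replicate 3. It was 1 without SSC WT replicate 1, SSC WT replicate 2 or OPC 1013/1013 replicate 1, and 5 without OPC 1013/1013 replicate 2, and in these fits no gene was called with the higher value in SSCs. It was 11 without SSC WT replicate 3, 18 without OPC WT replicate 2, 20 and 15 without OPC +/1013 replicates 1 and 2, 49 without OPC WT replicate 1 and 1960 without 1013/1013 SSC replicate 2.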

How the data were processed

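Pools of sorted SSCs and OPCs were sequenced by the authors with a full-length polyadenylated RNA kit (SMART-Seq v4) and tagmented libraries, aligned with STAR to mm10 and counted per gene with HTSeq. The deposited values are raw counts for 55335 genes, and the authors deposited them without normalization. Tool versions, annotation release and strand setting are not given in the sources used here. HTSeq's special counters stayed out of all fits.

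The 8 SSC libraries entered edgeR 4.0.16 (R 4.3.3; filterByExpr, TMM, glmQLFit with legacy = TRUE, glmQLFTest, genotype only), with Benjamini-Hochberg adjustment over 17659 genes. The SE is the absolute log2 fold change divided by the square root of F. The difference between cell types was fitted over all 17 libraries and 20238 genes. Transcript lengths, classes and coordinates come from GENCODE M21, matched by identifier for 55154 genes. DESeq2 1.42.0 and other normalizations, filters, library choices and a replicate block were alternatives. The exon length correction, a lowess of each library's log2 deviations over log2 length used as an offset, was chosen after seeing the data. The fit was tested on simulated counts.

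The comparison and the gene lists were chosen with earlier results of these data known. Named genes were all genes of the gate and of the CXCR4 axis, and the 4 list members with the smallest p. Added to these were the 10 higher and 10 lower genes with the smallest p and the 6 highest and 6 lowest by fold, among protein-coding genes of at least 10 CPM whose groups did not overlap at 1.5-fold or more. The last were 13 bone and fat genes and the 3 genes of smallest p in each other contrast. A gene of the lower set by p is not reported here. Other genes were named after their values were seen. Nothing says that pools of a genotype came from separate litters or days, so p-values measure the spread between these pools.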

Additional observations from a re-analysis of the deposited data

Results flagged for a closer look

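The effect of 1013/1013 against WT differed between SSCs and OPCs, by edgeR's test of the difference over 20238 genes, for 11 of the genes followed here. Ribosomal protein genes made up 5 of them. The difference of the log2 fold changes was 1.63 for Rps20 (adjusted p = 0.0202), 1.83 for Rpl32 (adjusted p = 0.0230), 1.61 for Rpl19 (adjusted p = 0.0297), 1.68 for Rps7 (adjusted p = 0.0331) and 1.52 for Rps19 (adjusted p = 0.0497). All 5 were higher in 1013/1013 than in WT SSCs, at 1.29 to 1.52, and lower in OPCs, at −0.31 to −0.22. Mitochondrial genes were Cox4i1, with a difference of 1.74 (adjusted p = 0.0361), and Mrpl13, with 1.61 (adjusted p = 0.0490).

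Ctsl, which encodes a lysosomal protease, differed by 2.05 (adjusted p = 0.0230), from 1.48 in SSCs to −0.58 in OPCs. Ccnl2, the cyclin of splicing speckles, differed by −2.20 (adjusted p = 0.0202), from −1.94 in SSCs to 0.24 in OPCs. Caprin2, an RNA-binding protein, differed by −7.35 (adjusted p = 0.0170), and Shc4, an adaptor of receptor tyrosine kinases, by −11.59 (adjusted p = 0.0170). Shc4 had 0 counts in both 1013/1013 SSC libraries and was at 2.83, 1.44 and 1.58 normalized CPM in WT SSCs, so its fitted difference is no measured fold. Its level in 1013/1013 SSCs was at least 28.5-fold lower than in WT. The exon length trend ran from 0.62 to −0.53 in SSCs and from −0.16 to 0.07 in OPCs. With that trend removed, 5 of the 11 were still called, namely Caprin2, Shc4, Rps20, Ccnl2 and Ctsl. The others were not, with adjusted p of 0.279 for Rpl32, 0.352 for Rpl19, 0.159 for Rps7, 0.104 for Rps19, 0.159 for Cox4i1 and 0.0855 for Mrpl13. With only WT and 1013/1013 libraries none of the 11 was called, and the adjusted p ran from 0.132 to 0.174.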

How the results depend on the processing

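In SSCs, 1013/1013 against WT, the 0 genes called became 1889 with DESeq2's Wald test over 28701 genes (1885 of them among the 17659 of edgeR's fit), 54 with at least 10 counts required in every library and 212 in a fit of all 17 libraries. Against +/1013 they became 239 with DESeq2 and 2 with all 17 libraries. The 31 genes called in the difference between cell types became 1274 with DESeq2 over 32878 genes, 5 without a filter, 59 with at least 10 counts, 0 with only WT and 1013/1013 libraries and 7 with the exon length trend removed. Leaving out 1 library gave 0 to 2931, 0 to 1812 and 0 to 1960 called genes in these comparisons, and the highest came without 1013/1013 SSC replicate 2 in each. The cause of these shifts was not tested.

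With the replicate block, 0 genes were called against WT and 0 against +/1013, 19 in the difference between cell types, and the cartilage median was −2.47. Deviations of equally numbered SSC libraries correlated at −0.16 to 0.14. The deviations were taken from each genotype's mean, so those of the 2 1013/1013 libraries mirror each other. These values therefore cannot show whether equally numbered libraries shared a litter or a day.

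The ribosomal median was 1.16 with DESeq2, 1.18 with its size factors, 1.29 with upper-quartile scaling and 1.175 with at least 10 counts. With the length trend removed, medians were 0.70 for cytosolic and 0.33 for mitochondrial ribosomal genes, 0.31 for nuclear oxidative phosphorylation, 0.41 for the proteasome, 0.67 for chemokines, −0.66 for collagens, −1.18 for nuclear RNAs and −0.18 for splicing genes. Without 1 library at a time, medians ran from 1.16 to 1.23 for cytosolic and 0.49 to 0.79 for mitochondrial ribosomal genes, 0.72 to 1.01 for nuclear and 1.98 to 3.75 for mitochondrial oxidative phosphorylation, and 0.65 to 0.78 for the proteasome. They ran from −1.32 to −0.77 for collagens, −4.01 to −0.93 for cartilage, −1.51 to 0.10 for bone matrix, −1.47 to −0.22 for osteogenic factors, 0.55 to 1.51 for Sca-1+ fibroblast genes, 0.50 to 1.27 for chemokines, −1.18 to −0.89 for nuclear RNAs and −0.57 to −0.35 for splicing genes.

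Of 116 genes followed across settings, which do not include Grk6, 4 changed sign under a setting that kept all libraries. With the length trend removed, Ctsk was at −0.063, Spp1 at −0.033, Ibsp at −0.15 and Lepr at 0.066, and with the replicate block Ibsp was at −0.28. Leaving out 1 library turned 13 genes, with ranges of −3.80 to 0.33 for Alpl, −2.61 to 0.68 for Bglap, −1.35 to 1.03 for Ibsp, −0.011 to 0.87 for Spp1, −0.57 to 0.17 for Lepr, −0.33 to 2.25 for Myc, −0.18 to 0.24 for Pdgfra, −0.91 to 2.77 for Pecam1, −10.17 to 0.040 for Ptprc, −1.31 to 0.31 for Sox9, −2.27 to 0.17 for Tnfrsf11b, −1.96 to 0.87 for Ddx3y and −1.53 to 1.39 for Xist.

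Depth limits genes under about 0.07 CPM, where 3 counts or fewer stand for a library. A pair of 1013/1013 pools, 1 of them set apart in genes with a count and in mitochondrial transcripts, limits every comparison, as does the absence of a batch label.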
